A study of Mus musculus with 8 samples.

Results

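The proteasome genes were taken as all protein-coding genes of GENCODE release M21 whose symbol begins with Psm, a letter from a to g and a digit, and 50 of 21951 protein-coding genes met this rule. A tag cluster, that is, a run of nearby capped 5' ends on 1 strand, was assigned to a gene if its dominant transcription start site (TSS, the position with the most 5' ends) lay on the gene's strand between 500 bp upstream of the gene start and the gene end. The rule also takes in assembly chaperones and Psmc3ip, which meets it by name but encodes a meiotic recombination factor and no subunit. By this rule 84 of 32857 tag clusters in E14, 84 of 33005 in clone A1 and 85 of 32870 in clone C7 belonged to proteasome genes. CAGE-seq, which maps TSSs by capturing the cap of RNA, had been performed on nuclear RNA. The wild type was the mouse embryonic stem cell (mESC) line E14, with 3 libraries, and 2 clones derived from it lacked both Pwwp2a and Pwwp2b (double knockout, DKO), A1 with 2 libraries and C7 with 3. Each DKO line is 1 clone. The comparison of the lines asks whether loss of PWWP2A and PWWP2B, paralogous readers of the histone mark H3K36me3 found with histone deacetylases, alters where transcription begins. The clusters were deposited with the replicates of each line merged and without signal values, so the values below have no replicate error, no p-value could be calculated, and the depth behind a cluster is not given in the file.

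The proteasome degrades proteins tagged with ubiquitin. Its core is a barrel of alpha rings, which gate the entry, and beta rings, which carry the proteolytic sites, and a regulatory particle of ATPase and non-ATPase subunits recognises, unfolds and feeds in the substrate. In embryonic stem cells the constitutive subunits are in general use, whereas the immunoproteasome beta subunits are known for their induction by interferon, and further subunits are known for their restriction to testis or thymus.

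Of the 50 genes, 45 (90%) had a cluster within 500 bp of an annotated transcript start in each of the 3 lines, whereas 50.4% of all protein-coding genes had one in E14. All 7 genes of the constitutive alpha ring, all 7 of the constitutive beta ring, all 11 non-ATPases of the regulatory particle, all 7 assembly chaperones and the inhibitor gene Psmf1 had a main promoter, defined as the cluster nearest to the start of a principal transcript and within 500 bp of it. Main promoters numbered 44 in each line. The 6 genes without a main promoter were Psmb8, Psmb9, Psmb10, Psmb11, Psme2b and Psmc2. Psmb8 and Psmb9 encode interferon-inducible catalytic subunits of the immunoproteasome, Psmb11 encodes the catalytic subunit of the thymus, and none of these 3 genes, nor Psme2b, had any cluster in any line. Psma8, which encodes the alpha subunit of testis, did have a main promoter, with a width of 35 bp in E14, 40 bp in A1 and 39 bp in C7. Widths here are of the interquantile region, the stretch between the positions where 0.1 and 0.9 of a cluster's signal has accumulated. A gene without a cluster is not shown to be silent, since no signal values were at hand.

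Psmb10, the third interferon-inducible catalytic subunit, had clusters only inside the gene. The gene occupies 105935735 to 105938444 of chromosome 8 (mm10, minus strand). The dominant TSS of the cluster spanning 105936901 to 105937014 was 105936941 in each line, which is in coding exon 5 of 8 and 1503 bp from the gene start. The interquantile width of this cluster was 59 bp in E14, 61 bp in A1 and 65 bp in C7. Another cluster of 2 bp lay at 105937035 in all 3 lines, in exon 1 of 4 of a noncoding transcript. Both were within 500 bp of the annotated start of a shorter Psmb10 transcript and so counted as alternative starts.

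Psmc2, which encodes an ATPase of the regulatory particle, had no cluster at the gene start of GENCODE. The gene begins on the plus strand of chromosome 5 at 21785283. Its first cluster spanned 21786722 to 21786808, with the dominant TSS at 21786775 and an interquantile width of 32 bp in each of the 3 lines. This TSS lies 1492 bp inside the gene, in exon 2 of 13 and within the coding sequence of a GENCODE transcript. RefSeq (GRCm38.p6, the assembly of mm10) lists 2 starts for Psmc2, at 21785275 and at 21786747, and the dominant TSS was 28 bp downstream of the second. The cluster was therefore internal by GENCODE and at a start by RefSeq, and with RefSeq starts added 46 of the 50 genes had a start cluster in each line. Both stretches are shown because they differ in use: the first gives the upstream RefSeq start, its first base in capitals, and the second gives the cluster in use, with its interquantile region except the last base in capitals.
Psmc2, RefSeq start without a cluster, chr5:21785195-21785304, plus strand: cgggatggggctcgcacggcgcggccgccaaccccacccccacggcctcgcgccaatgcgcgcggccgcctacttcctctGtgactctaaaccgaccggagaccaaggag
Psmc2, cluster in use, chr5:21786695-21786776, plus strand: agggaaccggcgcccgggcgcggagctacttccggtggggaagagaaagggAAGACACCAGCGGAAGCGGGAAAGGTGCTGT

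The main promoters of proteasome genes were mostly of intermediate width. Their median interquantile width was 34.5 bp in E14, 35.5 bp in A1 and 36 bp in C7, with a range in E14 from 6 to 67 bp. The median over all 10541 protein-coding genes with a main promoter in the 3 lines was 29 bp in E14. A width of at most 10 bp, called sharp, was found for 4 of 44 proteasome genes in E14 (9.09%), against 20.9% of all protein-coding genes. The 81 cytosolic ribosomal protein genes, another set for a large complex, had a median of 7 bp and 60.5% sharp promoters, and the 77 mitochondrial ribosomal protein genes had a median of 24 bp and 6.49% sharp promoters. Proteasome genes thus had the highest median of these sets in E14, and no test of the differences was possible.

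**Figure D1:**
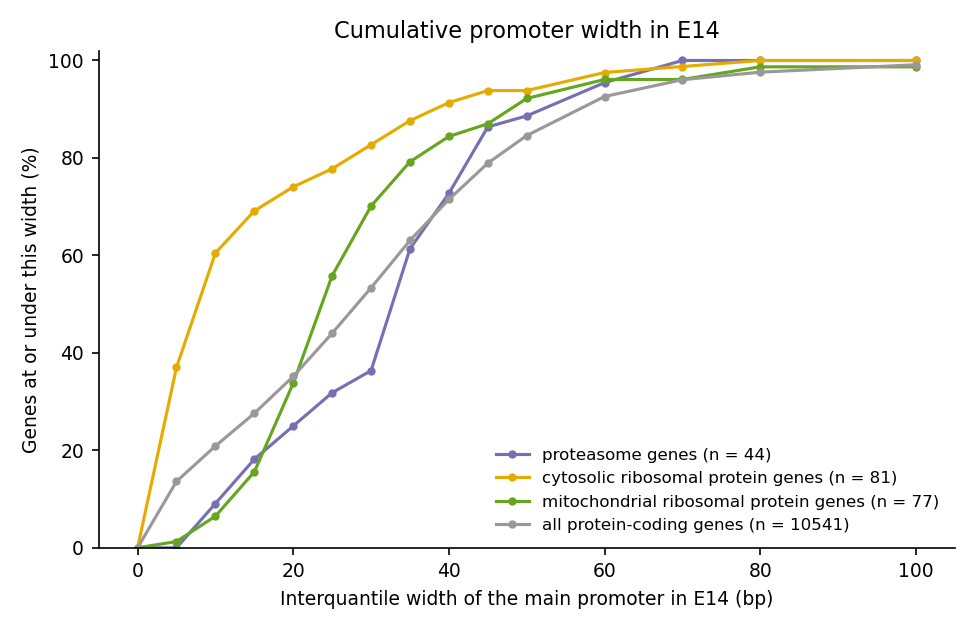
Cumulative share of genes (vertical axis, %) at or under each interquantile width of the main promoter in E14 (horizontal axis, bp), for proteasome genes, 2 sets of ribosomal protein genes and all protein-coding genes. At 10 bp the curve of the cytosolic ribosomal protein genes is at 60.5% and that of the proteasome genes at 9.09%.

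Width varied within each part of the complex. In E14 the alpha ring genes ranged from 8 to 67 bp with a median of 37 bp, the beta ring genes from 8 to 51 bp with a median of 20 bp, and the non-ATPases from 8 to 67 bp with a median of 37 bp. The 5 base ATPases with a main promoter lay closer together, between 20 and 34 bp. The narrowest main promoter was that of Psme4, which encodes the activator PA200, with 6 bp in E14, 10 bp in A1 and 9 bp in C7. Psma2, an alpha ring gene, had 8 bp in E14 and 9 bp in both clones. Psmb7, which encodes the catalytic subunit of trypsin-like activity, had 8 bp in all 3 lines. Psmd8 also had 8 bp in all 3 lines. Psmb4, a beta ring gene, had 11 bp in E14, 17 bp in A1 and 10 bp in C7. Among the narrow promoters only those of Psmb4 and Psme4 differed between lines by more than 1 bp.

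At the other end, the alpha ring gene Psma7 had a main promoter of 67 bp in E14 and A1 and 58 bp in C7. Psmd14, which encodes the deubiquitinase of the regulatory particle, had 67 bp in E14, 71 bp in A1 and 67 bp in C7. Psme1, a subunit of the interferon-inducible activator PA28, had 56 bp in E14, 57 bp in A1 and 56 bp in C7. Psma6 had 53 bp in E14 and A1 and 56 bp in C7, and Psmb3 had 51 bp in E14, 52 bp in A1 and 51 bp in C7. The narrow promoter of Psmd8 was not its only start, since a second cluster, 48 bp wide in E14 and 50 bp wide in both clones, had its dominant TSS at 29180507, downstream of the main TSS at 29180677 on the minus strand of chromosome 7.

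**Figure D2:**
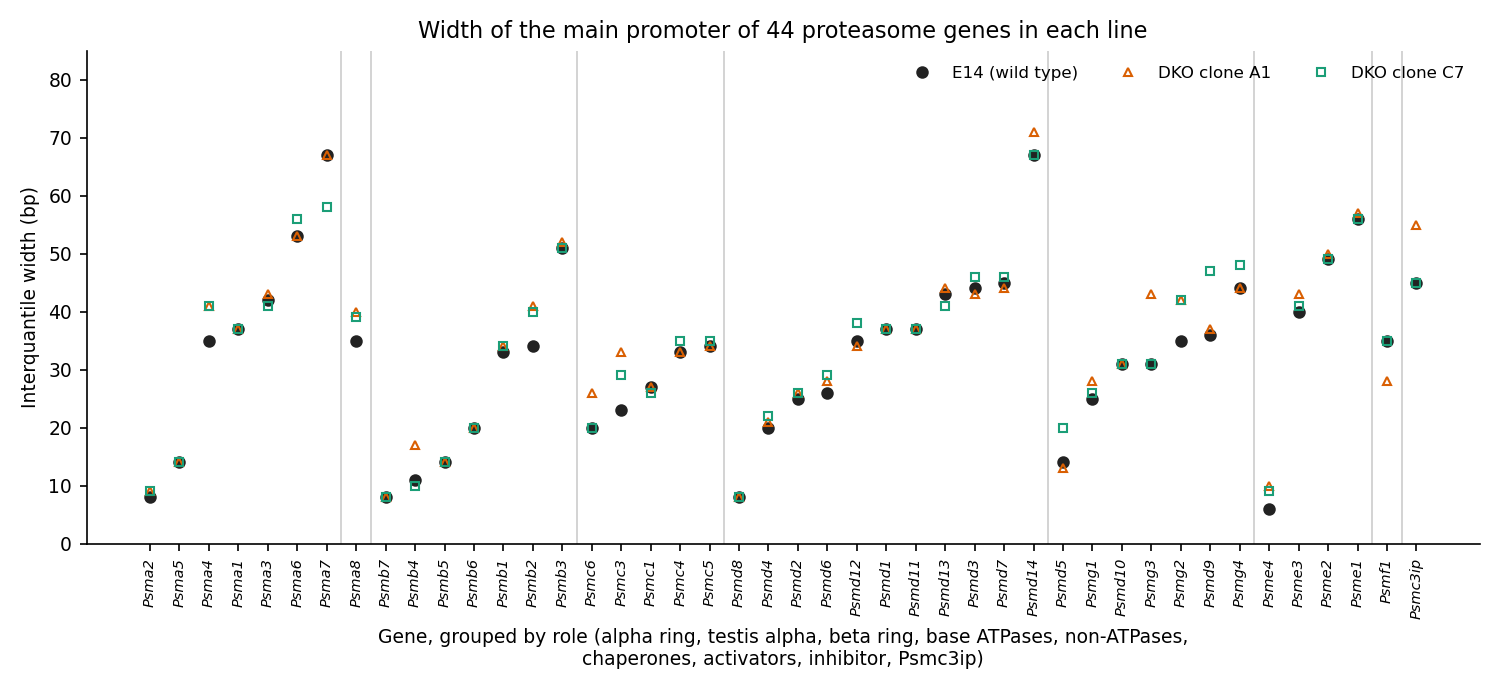
Interquantile width of the main promoter (vertical axis, bp) of each proteasome gene with one, in E14, DKO clone A1 and DKO clone C7 (1 symbol per line), with genes grouped by role and ordered by the E14 width. Widths run from 6 bp at Psme4 to 67 bp at Psma7 and Psmd14 in E14, and the 3 symbols of a gene lie close together at most genes.

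The sequences of narrow, intermediate and wide promoters are shown from 80 bases before the E14 dominant TSS, with the interquantile region of E14 in capitals, from the RefSeq promoter table of GRCm38.p6. The first 4 are narrow, Psma4 and Psmd12 lie near the median and Psme1 is wide, and all were chosen because their whole interquantile region lies within that table.
Psme4, 6 bp, chr11:30771699-30771793, plus strand: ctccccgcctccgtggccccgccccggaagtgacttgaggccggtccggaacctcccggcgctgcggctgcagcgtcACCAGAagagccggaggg
Psma2, 8 bp, chr13:14613172-14613271, plus strand: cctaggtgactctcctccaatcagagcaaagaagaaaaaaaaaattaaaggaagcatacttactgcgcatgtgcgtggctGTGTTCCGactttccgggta
Psmd8, 8 bp, chr7:29180665-29180757, minus strand: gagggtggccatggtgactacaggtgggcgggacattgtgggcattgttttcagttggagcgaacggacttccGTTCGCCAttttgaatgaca
Psmb4, 11 bp, chr3:94886929-94887013, minus strand: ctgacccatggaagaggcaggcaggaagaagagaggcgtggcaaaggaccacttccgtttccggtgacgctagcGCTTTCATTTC
Psma4, 35 bp, chr9:54950735-54950836, plus strand: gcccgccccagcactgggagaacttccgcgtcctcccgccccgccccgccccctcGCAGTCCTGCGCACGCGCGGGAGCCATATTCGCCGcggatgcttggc
Psmd12, 35 bp, chr11:107479429-107479548, plus strand: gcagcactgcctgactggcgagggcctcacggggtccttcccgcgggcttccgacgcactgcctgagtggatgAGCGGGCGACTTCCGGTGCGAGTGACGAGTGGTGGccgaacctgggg
Psme1, 56 bp, chr14:55578372-55578519, plus strand: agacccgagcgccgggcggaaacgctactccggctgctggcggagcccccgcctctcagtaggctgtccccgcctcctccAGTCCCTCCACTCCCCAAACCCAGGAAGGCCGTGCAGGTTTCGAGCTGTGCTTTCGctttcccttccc

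The dominant TSS of proteasome genes lay mostly on a pyrimidine-purine step, the usual initiator of RNA polymerase II, in which the base before the TSS (-1) is C or T and the first transcribed base (+1) is A or G. The step was found at 39 of 44 main promoters in E14 (88.6%), and at 82.9% of the 9777 main promoters of protein-coding genes whose sequence could be read. CA was the most frequent pair, at 17 proteasome promoters (38.6%), against 35.4% of those 9777. CG followed at 10 (22.7%), against 20.4%. The exceptions were Psma5, Psmb1 and Psmd7 with GG, Psmg3 with AA and Psmg4 with TC. Of the cytosolic ribosomal protein genes, 10 of 74 (13.5%) had the step and 63 of 74 began at a C. By contrast, 1 of 44 proteasome genes, Psmg4, and 791 of the 9777 main promoters of protein-coding genes began at a C. The mitochondrial ribosomal protein genes had the step at 68 of 76 promoters (89.5%). In the sequences above, Psmd8, Psmb4, Psma4, Psme1 and Psme4 each began at the A of a CA pair.

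**Figure D3:**
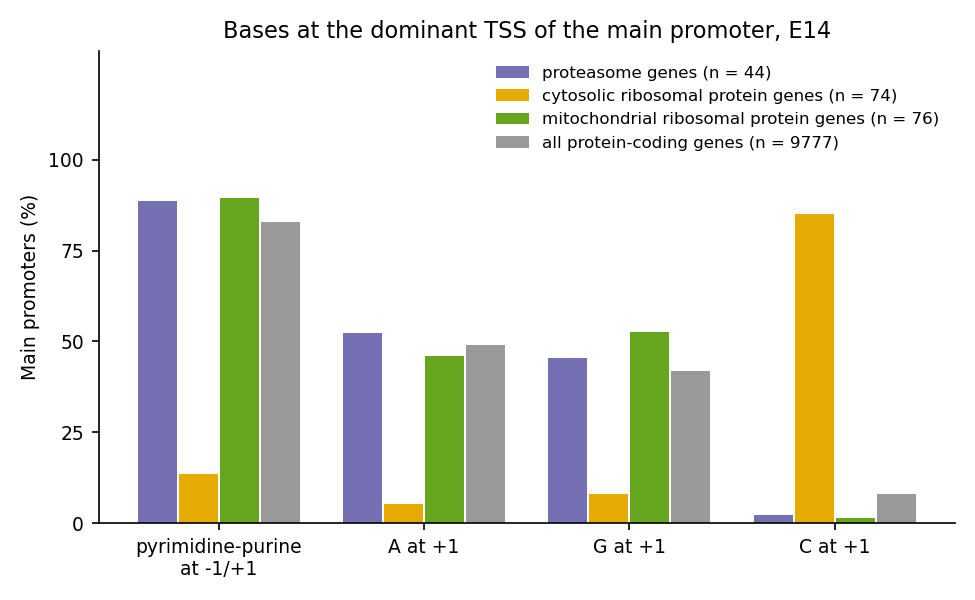
Share of main promoters (vertical axis, %) with a pyrimidine-purine step at -1/+1 and with A, G or C at +1, in E14, for proteasome genes, 2 sets of ribosomal protein genes and all protein-coding genes whose sequence could be read. The pyrimidine-purine bar stands at 88.6% for proteasome genes and at 13.5% for cytosolic ribosomal protein genes.

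Measured from the dominant TSS in E14, the 5' UTR of the principal transcript had a median of 54 bases over the 44 genes, with a range from 0 to 249 bases. The median over protein-coding genes was 127 bases, over cytosolic ribosomal protein genes 41 bases and over mitochondrial ribosomal protein genes 32 bases. Psmb6, a catalytic beta ring gene, had 11 bases, Psmd2 had 13 and Psmb7 had 14. The longest were those of Psmd14 with 249 bases, Psme3 with 215 and Psme4 with 204. Psmc3ip had its dominant TSS at the first base of the coding sequence.

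Promoter letters were searched on both strands of the RefSeq windows, from 250 bases before to 50 after each RefSeq start, and 36 of the 44 genes (81.8%) had such a window within 500 bp of the dominant TSS. The shares below are set against 3 others: all 32851 windows of the table, whether or not the gene had a start cluster, the 8112 windows at a main promoter of a protein-coding gene, and the 67 at mitochondrial ribosomal protein genes. The 8112 windows covered 76.6% of such main promoters and those of the cytosolic ribosomal protein genes 75.3%. Both are given as values, and an order against them holds only for the windows covered. The letters CGGAAG, bound by factors of the ETS family, were found in 21 of 36 proteasome windows (58.3%), in 16.9% of all windows, in 36.9% at main promoters, in 56.7% at mitochondrial and in 65.6% at cytosolic ribosomal protein genes. GGGCGG, the GC box, was in 22 (61.1%), in 35.7% of all windows, in 71.3% at main promoters and in 49.3% at mitochondrial ribosomal protein genes. The GC box was thus more frequent in proteasome windows than in the whole table and less frequent than at main promoters. AAGATGG, part of the site of YY1, was in 6 (16.7%), in 6.34% of all windows, in 8.22% at main promoters and in 19.4% at mitochondrial ribosomal protein genes. In Psma2, Psmb6, Psmc1 and Psmc5 the match began 20, 8, 18 and 29 bases after the dominant TSS. Their 5' UTRs had 23, 11, 21 and 32 bases, so the ATG of these matches is the start codon. The part of start codons in these shares was not tested. GCATGCG, part of the site of nuclear respiratory factor 1 and able to match both strands at nearly the same place, was in 3 (8.33%), in 3.58% of all windows, in 7.95% at main promoters and in 10.4% at mitochondrial ribosomal protein genes, so its share was near that at main promoters. CCAAT was in 11 (30.6%), in 37.4% of all windows, in 40.9% at main promoters and in 37.3% at mitochondrial ribosomal protein genes. TATAAA was in 3 (8.33%), in 13.6% of all windows, in 6.07% at main promoters and in 5.97% at mitochondrial ribosomal protein genes, so its order against the whole table and against main promoters differed.

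ETS letters stood at least 3 times in the windows of 5 genes, Psma6, Psmc1, Psmd13, Psmg1 and Psmc3ip. The first 3 are shown with these letters in capitals, CGGAAG on the gene's strand and CTTCCG where the match is on the other strand, to show how they are spaced.
Psma6, chr12:55398684-55398854, plus strand: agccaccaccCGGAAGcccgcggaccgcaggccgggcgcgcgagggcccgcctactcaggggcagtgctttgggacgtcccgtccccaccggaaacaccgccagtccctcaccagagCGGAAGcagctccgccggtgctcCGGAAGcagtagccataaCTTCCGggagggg
Psmc1, chr12:100110092-100110231, plus strand: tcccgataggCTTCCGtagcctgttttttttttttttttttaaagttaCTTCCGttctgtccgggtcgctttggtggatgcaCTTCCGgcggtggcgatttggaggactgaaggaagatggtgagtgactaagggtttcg
Psmd13, chr7:140882293-140882423, plus strand: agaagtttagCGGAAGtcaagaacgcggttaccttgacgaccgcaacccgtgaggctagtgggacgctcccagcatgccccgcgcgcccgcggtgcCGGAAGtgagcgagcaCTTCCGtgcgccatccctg
Counted from the dominant TSS, with bases before it negative, the 4 matches in Psma6 began at -144, -37, -14 and 4, and the 3 in Psmc1 at -86, -48 and -14. In Psmd13 they began at -114, -28 and -12. How many windows of other genes held at least 3 matches was not counted.

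Nfe2l1 is a transcription factor known to raise proteasome genes when the proteasome is inhibited, and it binds antioxidant response elements. The core of this element, searched as TGACNNNGC, was in 6 of 36 windows (16.7%), near the 12.4% of all windows and the 15.2% at main promoters. It was in 20.9% at mitochondrial and in 19.7% at cytosolic ribosomal protein genes, both above the share of the proteasome genes. The 6 proteasome genes with the core were Psmb5, Psmb6, Psmc6, Psmd9, Psmd12 and Psme4. In 3 of them the core began within 50 bases of the dominant TSS, and these are shown with the core in capitals, which for Psme4 reads on the other strand.
Psmb5, chr14:54618006-54618062, minus strand: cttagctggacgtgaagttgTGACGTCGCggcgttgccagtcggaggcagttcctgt
Psmb6, chr11:70525328-70525386, plus strand: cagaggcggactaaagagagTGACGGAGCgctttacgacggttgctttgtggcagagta
Psme4, chr11:30771748-30771787, plus strand: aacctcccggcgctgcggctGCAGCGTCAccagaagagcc
Psmb5 and Psmb6 encode catalytic beta subunits, and the core began at -28 and -38 from their dominant TSS. How often the core lay within 50 bases of the dominant TSS at other genes was not counted. A match of letters is a description and no evidence of binding.

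A start on the opposite strand lay within 500 bp upstream of the dominant TSS at 10 of 44 proteasome genes in E14 (22.7%), against 22.2% of all main promoters. At 6 of the 10 it was at an annotated start, such as that of Mrpl32 at 220 bp from Psma2 and that of Ftsj3 at 62 bp from Psmc5. These 6 are 13.6% of the 44 genes, against 15.8% of all main promoters with such a start.

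The choice of dominant TSS was the same in all 3 lines at nearly every proteasome gene. It moved in A1 at 0 of 44 main promoters, against 18.5% of all protein-coding genes, and in C7 at 2 of 44 (4.55%), against 16.6%. None of the 44 moved in both clones, against 9.06%. The cytosolic ribosomal protein genes moved at 6 of 81 promoters (7.41%) in each clone and the mitochondrial ones at 14 of 77 (18.2%) in A1 and 13 of 77 (16.9%) in C7. Main promoters of 41 bp or wider had the same dominant TSS in the 3 lines at 12 of 12 proteasome genes and at 73.2% of all such promoters, and those of 21 to 40 bp at 19 of 21 and at 74.6%. The clusters carry no read counts, and the part of read depth and gene level in these shares was not tested.

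Psmd10 and Psmf1 were the 2 genes with a moved TSS. Psmd10, on the minus strand of chromosome X, encodes gankyrin, an assembly chaperone of the base. E14 and A1 shared the dominant TSS 140956689, while that of C7 was 140956696, 7 bp upstream, and its width was 31 bp in every line. Psmf1, on the minus strand of chromosome 2, encodes the inhibitor PI31. E14 and A1 shared the dominant TSS 151741293, while C7 used 151741277, 16 bp downstream, and its width was 35 bp in E14, 28 bp in A1 and 35 bp in C7. Both TSSs of each gene are in capitals in the stretches below, and in Psmd10 the upstream capital and in Psmf1 the downstream capital is the TSS of C7.
Psmd10, chrX:140956674-140956703, minus strand: ggggcttGagtttcAcggaggtcttgggaa
Psmf1, chr2:151741271-151741300, minus strand: tttccgcGtttccacttttccgcGcaggtg
Both TSSs of Psmf1 follow a C and begin with G within the same letters, ttccgcG.

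The interquantile region was more often wider than narrower in the clones. In A1 it was wider than in E14 by at least 1 bp at 24 of 44 genes (54.5%), against 32.4% of all protein-coding genes, and narrower at 5 (11.4%), against 14.8%. In C7 it was wider at 22 of 44 (50%), against 30.6%, and narrower at 5 (11.4%), against 14.7%. At 14 genes (31.8%) it was wider in both clones, against 20.4%, and at 0 genes it was narrower in both, against 5.88%. The differences were small, with a median of 1 bp in A1 and 0.5 bp in C7 and a range from -7 to 12 bp in A1 and from -9 to 11 bp in C7. Psma4, with 35 bp in E14 and 41 bp in both clones, and Psmb2, with 34 bp in E14, 41 bp in A1 and 40 bp in C7, were among the genes wider in both clones. Psmc3, which encodes a base ATPase, had 23 bp in E14, 33 bp in A1 and 29 bp in C7. E14 rests on 3 libraries, A1 on 2 and C7 on 3, and the part of library number and depth in the widths was not tested.

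Changes of at least 1.5-fold were few. They were found in A1 at 2 of 44 genes, against 6.24% of all protein-coding genes, and in C7 at 1 of 44, against 5.7%. Psme4 was the gene that passed in both clones, at 1.67-fold in A1 and exactly 1.5-fold in C7, which are differences of a few bp at the narrowest promoter. Psmb4 passed in A1 alone, at 1.55-fold.

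**Figure D4:**
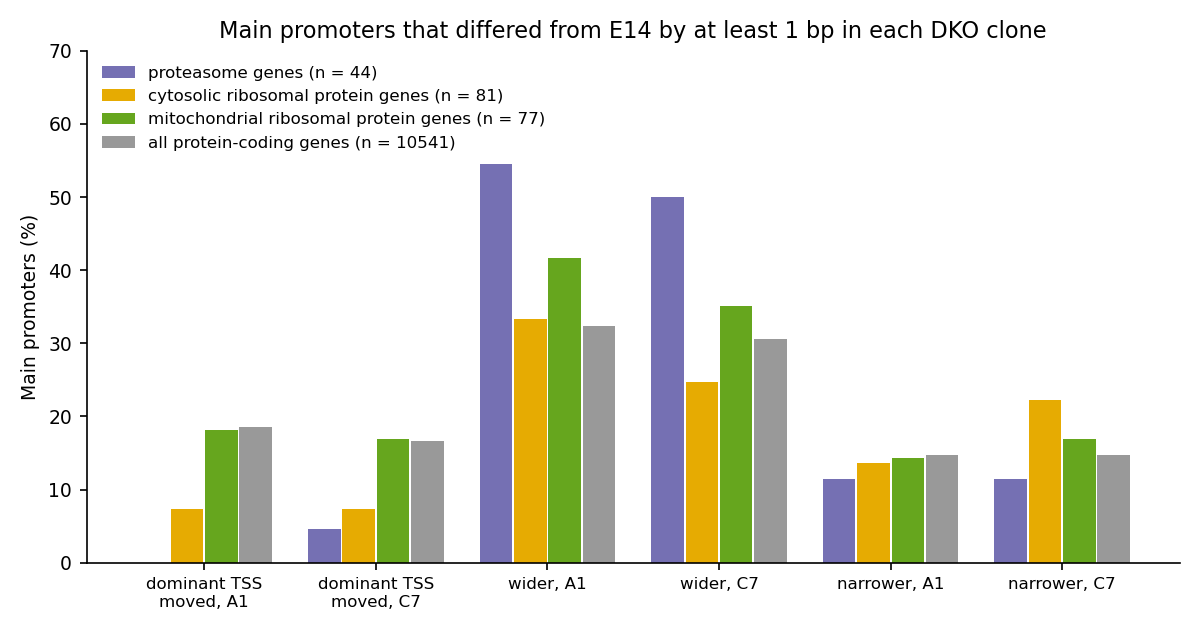
Share of main promoters (vertical axis, %) whose dominant TSS moved, or whose interquantile region was wider or narrower than in E14, by at least 1 bp in each DKO clone, for proteasome genes, 2 sets of ribosomal protein genes and all protein-coding genes. Proteasome genes have no bar for a moved TSS in A1 (0 of 44) and stand at 54.5% for a wider region in A1.

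Alternative starts, that is, further clusters within 500 bp of an annotated start of the gene, numbered 13 in each line and belonged to 9 genes. Among the 45 genes with a start cluster, 9 (20%) had one, against 40.3% of protein-coding genes and 80.2% of cytosolic ribosomal protein genes. Their median width in E14 was 4 bp. Psmd1, which encodes a scaffold of the base, had 4 of them: 1 of 4 bp upstream at 86064372, and 3 in coding exon 20 of 25 near a short annotated transcript. Psmd6, a non-ATPase, had a cluster in coding exon 1 whose dominant TSS lay at 14120764 in E14, 14120765 in A1 and 14120783 in C7. No other alternative start moved, so 1 of 13 (7.69%) moved in each clone, against 25.5% of alternative starts of protein-coding genes in A1 and 22.3% in C7. Psme2, a subunit of PA28, had a cluster of 3 bp at 55591551, upstream of the gene start at 55591113 on the minus strand of chromosome 14.

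Internal clusters, inside the gene and over 500 bp from every annotated same-strand start, numbered 25 in E14, 25 in A1 and 26 in C7. They were found in 14 of the 50 genes in E14. Among genes with a start cluster, 13 of 45 (28.9%) had one, against 21% of protein-coding genes, 37% of cytosolic and 8.97% of mitochondrial ribosomal protein genes. The median gene length was 12361 bp for these proteasome genes and 24332 bp for protein-coding genes with a start cluster. In E14 16 lay in coding sequence, 2 in a 3' UTR and 7 in introns. Their median width was 2 bp, and 17 of 25 spanned at most 2 bp, while the median of the main promoters was 34.5 bp. The places and widths of internal clusters in other genes were not summarised, so neither is shown to be particular to proteasome genes. The internal clusters of E14 were all present in both clones, and 97.3% of all E14 clusters of any kind had the same borders in all lines. Presence gives no level of initiation.

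Psmd1 had the most, with 4 internal clusters in coding exons 18, 21 and 22 of 25, all in the last part of the gene. Their dominant TSSs were at 86118571, 86130642, 86130725 and 86132724 on the plus strand of chromosome 1 in E14, and A1 had the same 4. C7 had the second at 86130647. Psmc1, a base ATPase gene, had 3 internal clusters in coding exons 2, 3 and 7 of 11, at 100112333, 100113101 and 100116768 on chromosome 12 in all 3 lines. Psme4 had 3 in introns 1, 20 and 43 of its principal transcript, each 2 bp wide in every line. Psma4, Psmc2, Psmd7 and Psmd11 had 2 each, which in Psmc2 included the wide cluster at the RefSeq start. Psma2 had 1 in coding exon 2, and 2 further clusters of its window belonged to the start of AW209491.

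**Figure D5:**
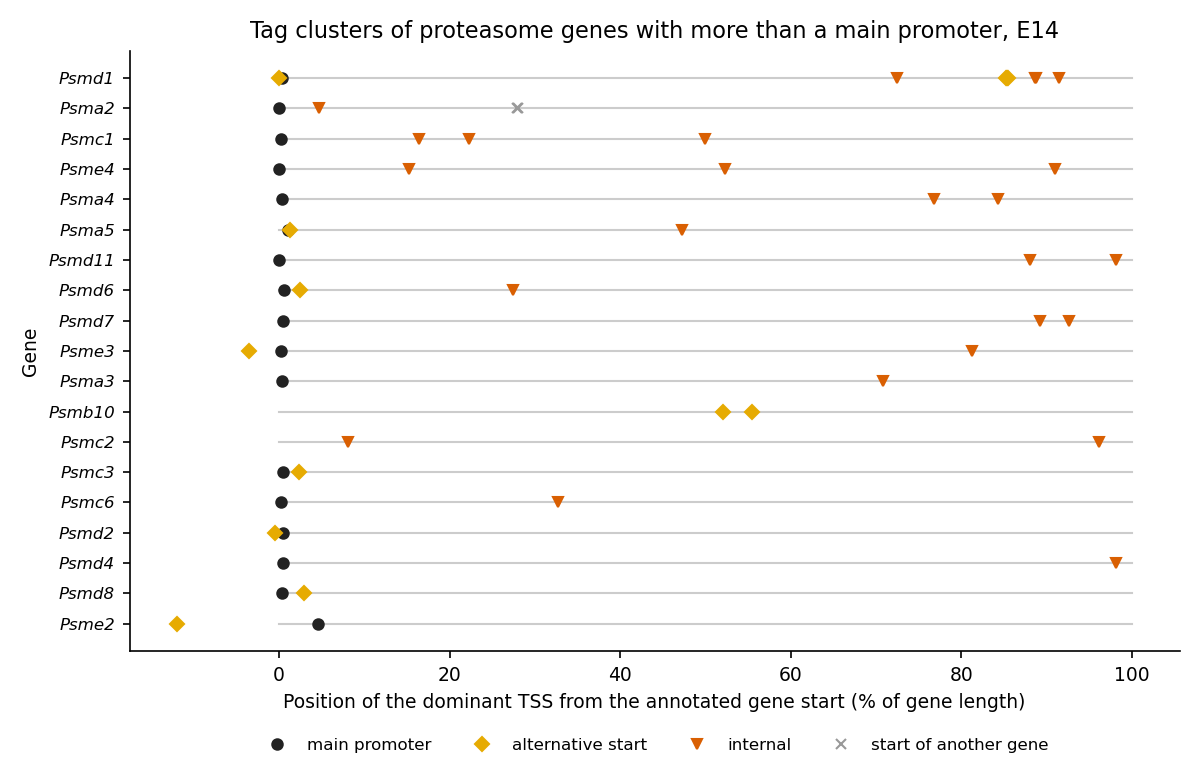
Position of the dominant TSS of each cluster in E14 (horizontal axis, % of gene length from the annotated gene start, upstream below 0) for the 19 proteasome genes with at least 1 cluster that is not a main promoter. Internal clusters are spread along the genes, and Psmb10 and Psmc2 have no symbol for a main promoter.

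The presence of internal clusters differed between lines at 1 place. A cluster of 1 bp at 38633927 on chromosome 2, in coding exon 5 of 8 of Psmb7, was present in C7 and in neither E14 nor A1. The share of all C7 clusters without a counterpart in E14 and A1 was not counted. The cluster borders themselves were shared, however: 82 of the 84 clusters of proteasome genes in E14 (97.6%) and 97.3% of all E14 clusters kept both borders unchanged across the lines. How the borders were set in each line is not given in the sources used here, so presence in a line may not be independent of the others. The dominant TSS of the 25 internal clusters moved in A1 at 1 (4%), against 27.1% of internal clusters of protein-coding genes, and in C7 at 5 (20%), against 23.3%. In Psma5 it moved by 17 bp, from 1 end of an 18 bp cluster in coding exon 5 to the other, and at Psmc2 exon 11 and Psmd4 by 1 bp within a cluster of 2 bp. The cluster in the 3' UTR of Psmd11 was 19 bp wide in E14 and A1 and 2 bp in C7, with the same dominant TSS.

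The bases at internal clusters differed from those at main promoters. Of the 18 internal clusters of proteasome genes in exons in E14, 2 (11.1%) had a pyrimidine-purine step, against 9.12% of 4036 such clusters of other protein-coding genes, and 1 of the 2 was the Psmc2 cluster at the RefSeq start. The base before the TSS was G at 12 of 18 (66.7%), at 73.7% of those of the other genes, and at 3 of 43 main promoters of proteasome genes (6.98%). GGG stood directly before the TSS at 8 of 18 (44.4%), at 0 of 43 main promoters and at 1.59% of all positions of 1 principal transcript per gene. The triplet was looked for after these bases had been read. In the other protein-coding genes GGG preceded 40.9% of the internal exonic clusters and 2.69% of 9662 main promoters, shares of similar order to those of the proteasome genes. The stretches below run 15 bases before and 15 bases from the dominant TSS, which is in capitals, in GENCODE transcripts. They show clusters with GGG directly before the TSS and, for contrast, Psma5 without. Psmd7 is also shown: it has no GGG directly before its dominant TSS. However, GGG stands directly before the other position of this cluster of 2 bp.
Psma2 exon 2, chr13:14616082: gccccgtcagtggggAttaaagctgcaaat
Psma4 exon 7, chr9:54956353: gtggaaactatggggGatggaaagccacat
Psmc1 exon 3, chr12:100113101: ccaactagagtggggAaaaagaagaagaaa
Psmc1 exon 7, chr12:100116768: aagccccctaaggggGtcattctctacggt
Psmc2 exon 11, chr5:21803072: gatgccattggagggGctcggtttgacgat
Psmd1 exon 18, chr1:86118571: acgtgaggcaaggggCtctgatagcttcag
Psmd4 exon 10, chr3:95032876: cgaagtgtcatggggGctctggcctcccag
Psma5 exon 5, chr3:108267828: tgagacaatgacagtTgagagtgtgaccca
Psmd7 exon 7, chr8:107581249: catggcttgaagggaCtgaactccaagctc
The cluster found in C7 alone, in Psmb7, also had GGG before its TSS.
Psmb7 exon 5, chr2:38633927: cctagttttggggggAgtagatgttactgg

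Other genes of the pathway, outside the symbol rule, were taken from a list that included shuttle factors, deubiquitinases, chaperones, regulators and a ubiquitin receptor. The 21 that matched the annotation all had a main promoter in E14. Their median width was 42 bp, and 2 were sharp, Ubqln2 with 9 bp and Fbxo7 with 7 bp in every line, where 20.9% of all protein-coding genes were sharp. The dominant TSS of Adrm1, which encodes the ubiquitin receptor RPN13, moved by 8 bp in A1 and was unmoved in C7. The regulators Nfe2l1 and Nfe2l2 had the same dominant TSS in all 3 lines. Of the 21, 10 had an internal cluster in E14, against 21% of protein-coding genes with a start cluster, and Ube3c had the most with 5 in each line.

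All 8 markers of embryonic stem cells examined had a main promoter in each line, and those of endoderm (3 genes) and mesoderm (2 genes) had none. Of 2 neural markers Sox1 had one, and all 3 fibroblast markers, Col1a1, Col1a2 and Thy1, had one in each line. These are counts of clusters and not levels, and their part in the results was not tested. Of the targeted genes, Pwwp2a had a main promoter of 36 bp in E14 and A1 and 35 bp in C7, and Pwwp2b had no start cluster in any line. A start cluster does not test a lesion further inside a gene.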

How the data were processed

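CAGE-seq clusters of E14 and both DKO clones were used. The authors mapped reads to mm10 with STAR 2.4.2a (version from the submitters' processing notes), retained uniquely aligned reads, pooled the libraries within a line, scaled 5' ends to a power law and clustered them with CAGEr. The deposited values are positions in bp. The score is 0 in every row, so no signal or depth was used.

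Interquantile regions were read from the cluster blocks and compared with GENCODE M21 in Python 3.11.15. The main promoter of a clone was the cluster overlapping that of E14 by at least 1 bp. The functions were tested on simulated clusters and recovered 950 of 950 regions and 500 of 500 shifts. Simulated regions of 1 bp at 1 end of a wider cluster were left out, a layout found at Psmd1 86130725. The simulated dominant TSS always lay inside the region, while in the data it lay outside at 8 clusters. Such cases were therefore not tested. Bases came from RefSeq windows (42 of 50 genes matched) and GENCODE transcripts, which were equal at 5004 of 5004 TSSs where both held them.

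Named genes were the tissue-restricted ones, those without a main promoter, the 5 narrowest and 5 widest in E14, those changed in both clones, those with the most internal clusters and those with a cluster absent from a line. Other genes named were chosen after their values were seen. The genes and lists were chosen with earlier results of these data known. Alternatives were the windows, the choice and width of the main promoter, the thresholds and the overlap. The start site shift of 1 gene of the pathway list is not reported here.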

Additional observations from a re-analysis of the deposited data

How the results depend on the processing

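No paired analysis was possible because the replicates of each line were merged before deposit. The whole cluster in place of the interquantile region gave a median main promoter width of 82 bp in each of the 3 lines. With at most 5 bp as the limit for a sharp promoter, 0 proteasome genes were sharp in any line, against 13.6% of protein-coding genes in E14. Width changed at 0 genes in A1 and 0 in C7 with a 2-fold limit, against 2.95% and 2.59% of all protein-coding genes, and likewise with whole clusters, against 0.313% and 0.161%. Alternative starts fell from 13 to 6 in each line with a distance of 100 bp. With a limit of 5 bp the moved dominant TSSs stayed at 0 in A1 and 2 in C7, against 12.4% and 11.3% of all protein-coding genes. The widest cluster as the main promoter, compared at 45 proteasome genes, also gave 0 in A1 and 2 in C7. Of all protein-coding genes, 19.5% in A1 and 17.4% in C7 moved with that choice. Internal clusters in E14 numbered from 23 to 30 over the distances and transcript sets tried, and 24 with RefSeq starts, an alternative chosen after seeing the data. Without Psmc3ip and the assembly chaperones the median E14 width was 34.5 bp and the TSS moved in C7 at 1 of 36 genes. The clusters carry no read counts and library totals were not used here, so differences of a few bp between lines were not set against counting error.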
